A study of Rattus norvegicus with 11 samples.

Results

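Translation initiation factors are the proteins that bring the initiator tRNA, the mRNA and the ribosome together at a start codon. The genes for them were taken as every row of the deposited expression table whose symbol begins with Eif and a digit, leaving out the eIF2 kinases (symbols starting Eif2ak) and the gamma subunit of eIF2 (symbols starting Eif2s3). This gave 46 of 17257 genes, all of them with a mean above 0. The samples were ventricular myocytes, the contractile cells of the heart, from 5 female and 6 male wild-type Sprague Dawley rats aged 3 to 4 months. The cells had been isolated on a Langendorff perfusion apparatus and kept in a dish for 45 minutes, untreated, before freezing and RNA extraction. The question behind the design was whether gene expression in these cells differs by sex, so each value below sets females against males.

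Initiation starts when eIF2 carries the initiator tRNA to the small ribosomal subunit, where eIF1, eIF1A, eIF3 and eIF5 assemble. The cap-binding complex eIF4F, made of the cap-binding protein eIF4E, a scaffold of the eIF4G family and the helicase eIF4A, loads the mRNA, and eIF5B joins the large subunit. Translation is controlled mainly at eIF2, whose GTP is renewed by the exchange factor eIF2B, and at eIF4E, which is held back by binding proteins under the kinase mTOR. In the heart these controls take part in protein synthesis during growth.

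The values are the authors' mean normalized counts per sex with their fold change, p-value and adjusted p-value. Fold changes and their log2 values, called log2 ratios here, are female over male. A gene is said to have risen, fallen or changed in females when the adjusted p over all genes tested was under 0.05. By this rule the authors' deposited table called 15 of the 46 genes, 3 higher in females and 12 lower. Among all 13346 genes tested, 14.5% were called, 6.71% higher and 7.76% lower. Of the initiation factor genes, 6.52% were higher, close to that background, and 26.1% were lower. These genes mostly have high means, so the share was also taken among the 9116 genes whose mean reached 50, where 20.5% were called, 9.69% higher and 10.8% lower. Most of the 46 genes lie well above 50, so this cut does not match the genes compared in mean count. With an adjusted p under 0.01 the counts were 2 higher and 2 lower, where 2.95% of all genes were higher and 2.73% lower. With an adjusted p under 0.10 they were 4 higher and 16 lower, where 9.41% were higher and 11.1% lower. Adjusting over genes whose mean reached 10 gave 3 higher and 16 lower (9.41% and 10.8% of genes), and over genes whose mean reached 50 it gave 4 higher and 16 lower (11.4% and 12.6%). With a Bonferroni adjustment of the authors' DESeq p-values 0 were higher and 0 lower (0.517% and 0.217% of genes), while 26 of the 46 had an unadjusted p under 0.05, 10 of them higher and 16 lower. Of all genes tested 27.3% had such a p, 12.7% higher and 14.6% lower. The median log2 ratio of the 46 genes was 0.06, and that of all genes tested was -0.01. By the authors' size factors 26 of the 46 had a higher mean in females and 20 a lower one, against 49.1% of all genes tested higher in females. That split depended on the scaling, since equal totals over rows with a gene symbol gave 23 higher and 23 lower, with 44.5% of all genes higher.

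**Figure D1:**
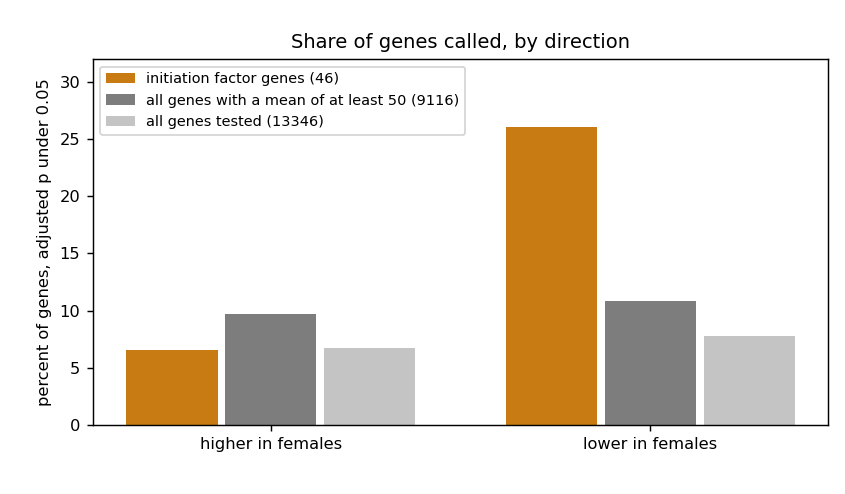
Percent of genes with an adjusted p under 0.05 (vertical axis), for those higher and those lower in females, among the initiation factor genes and among all genes. The initiation factor bar stands at 6.52% for genes higher in females and at 26.1% for genes lower in females, where all genes tested stand at 6.71% and 7.76%. All genes with a mean of at least 50 stand at 9.69% and 10.8%.

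The libraries were much alike in depth, with size factors read from the digits of the means between 0.972 and 1.135 in females and between 0.811 and 1.173 in males. Markers of cardiac myocytes were abundant, with 2 of 8 called higher in females (Myh6 and Ryr2) and summed authors' means of 3669619 in females and 3083784 in males. Myh6 weighs most on the difference in this sum, with 1330868 in females and 831771 in males. By their means 5 of the 8 were higher in females and 3 lower. Of 6 fibroblast markers, Col1a2 was listed at 0, and 2 of the remaining 5 (Col1a1 and Col3a1) fell. The 5 had summed authors' means of 8892 in females and 17938 in males. Col3a1 weighs most on that difference, with 3915 in females and 10722 in males. All 5 had a lower mean in females, but 3 missed the threshold. Vwf was the only one of 6 endothelial markers to change and was higher in females. The list summed to 16400 in females and 15668 in males. None of the 6 macrophage markers (summed means 365 in females and 434 in males) or of the 6 smooth muscle and pericyte markers (4258 and 4505) passed the threshold. The part of these other cells in the values of the initiation factors was not tested, and in RNA from a mixed preparation fewer cells of a type and less RNA per cell cannot be told apart. Rows named by an Ensembl identifier alone held 50.7% of the summed means in females and 57.5% in males. Gene lengths were not used, so means are compared between the sexes for a gene and not between genes.

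**Figure D2:**
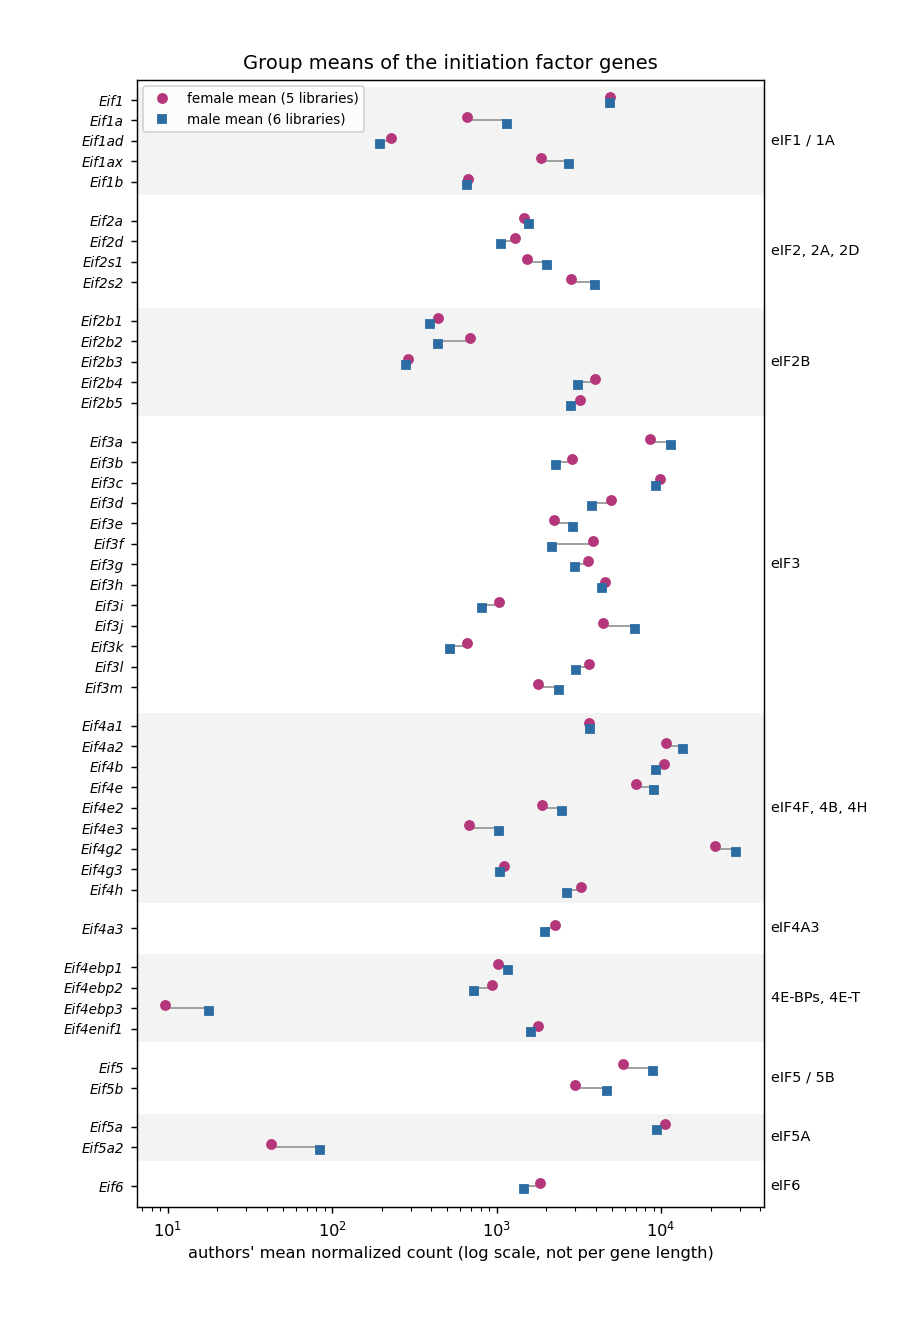
Authors' mean normalized count of each initiation factor gene (horizontal axis, logarithmic) in females (circles) and males (squares), in blocks by factor complex. A line joins the means of a gene, and no replicate error is shown because only group means are held in the table. Eif4g2 has the highest means, 21333 in females and 28492 in males, and Eif4ebp3 the lowest, 9.64 in females and 17.9 in males.

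In eIF2, the alpha and beta subunit genes fell, and the gamma subunit was left out when the genes were chosen. Eif2s1 encodes the alpha subunit, the target of the stress kinases that shut initiation down. Its mean was 1522 in females and 2031 in males, and the authors' deposited table gave a log2 ratio of -0.42 (adjusted p = 0.0303). Eif2s2 encodes the beta subunit, which binds eIF5 and eIF2B. It had means of 2834 in females and 3945 in males, and the authors' deposited table gave a log2 ratio of -0.48 (adjusted p = 0.0109). Both genes were thus lower in females by a like amount, with folds of 0.749 and 0.718 by the authors' deposited table. Eif2a and Eif2d encode single-chain factors that can bring tRNA to the ribosome without eIF2. Neither passed the threshold, with means of 1461 in females and 1584 in males for Eif2a and of 1302 in females and 1057 in males for Eif2d. The authors' deposited table listed them with adjusted p = 0.703 and adjusted p = 0.157.

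The exchange factor eIF2B went the other way in its group means. By the authors' size factors all 5 subunit genes had higher means in females, where 49.1% of all genes tested did. Their log2 ratios ran from 0.05 to 0.65 in the authors' deposited table, but Eif2b2 alone was called. The lowest was that of Eif2b3. Equal totals over rows with a gene symbol shift every log2 ratio by -0.06 and put Eif2b3 below 0. Eif2b2, for the beta subunit of the regulatory core, had means of 690 in females and 439 in males, and the authors' deposited table gave a fold of 1.57 (adjusted p = 0.00434). Eif2b4, for the delta subunit, had means of 3975 in females and 3128 in males and lay just outside the threshold (adjusted p = 0.0667, the authors' deposited table). Eif2b5 encodes the catalytic epsilon subunit, with authors' means of 3209 in females and 2842 in males. Eif2b1, for the alpha subunit, had 442 in females and 394 in males, and Eif2b3, for the gamma subunit, had 289 in females and 280 in males. The authors' means of the 5 genes summed to 8605 in females and 7083 in males, while those of Eif2s1 and Eif2s2 were lower in females. Whether the difference between the sexes in eIF2B was unlike that in eIF2 was not tested.

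Among the factors that keep the scanning ribosome open, the eIF1A genes fell and the eIF1 genes gave nearly equal means. Eif1a, on an autosome, had means of 663 in females and 1164 in males, and the authors' deposited table gave a log2 ratio of -0.81 (adjusted p = 0.00533). Eif1ax, which the RefSeq table places on the X chromosome, had 1853 in females and 2762 in males, and the authors' deposited table gave a log2 ratio of -0.58 (adjusted p = 0.0244). The products of Eif1a and Eif1ax are near-identical, so reads could have been divided between their rows and each value is uncertain. Eif1, whose product guards the choice of start codon, had means of 4916 in females and 4862 in males. Its paralog Eif1b had 670 in females and 665 in males, and the authors' deposited table listed an adjusted p of at least 0.966 for both. Eif1ad, named for a domain shared with eIF1A, had authors' means of 227 in females and 195 in males and was not called.

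The scaffold eIF3, the largest initiation factor, was divided. Of 13 subunit genes, 2 rose and 3 fell, and 9 had a higher mean in females. Eif3f had the smallest p of all 46 genes. It encodes a subunit of the core with an MPN fold, and in muscle it is a known target of the ubiquitin ligase atrogin. Its mean was 3853 in females and 2172 in males, and the authors' deposited table gave a fold of 1.77 (adjusted p = 5.73e-04). Eif3d, whose product can itself bind the cap of some mRNAs, had means of 4986 in females and 3821 in males, and the authors' deposited table gave a fold of 1.30 (adjusted p = 0.0369).

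Of the genes that fell, Eif3j encodes a loosely held subunit that reaches into the decoding centre. It had means of 4426 in females and 6924 in males, and the authors' deposited table gave a log2 ratio of -0.65 (adjusted p = 0.0218). Eif3a, for the largest subunit, had 8516 in females and 11558 in males, and the authors' deposited table gave a log2 ratio of -0.44 (adjusted p = 0.0317). Eif3m, a core subunit with a PCI fold, had 1777 in females and 2393 in males, and the authors' deposited table gave a log2 ratio of -0.43 (adjusted p = 0.0396). Eif3e, another PCI subunit, lay just outside the threshold, with means of 2236 in females and 2901 in males (adjusted p = 0.0520, the authors' deposited table). Core subunits were therefore found on both sides, with Eif3f higher and Eif3a and Eif3m lower in females.

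The remaining subunits of eIF3 missed the threshold and had higher authors' means in females. Eif3b, Eif3g and Eif3i encode a module beside the mRNA channel and lay close together, where the authors' deposited table gave log2 ratios of 0.32, 0.26 and 0.35 (adjusted p = 0.116, 0.201 and 0.112). Their authors' means were 2862 in females and 2299 in males for Eif3b, 3576 in females and 2993 in males for Eif3g, and 1032 in females and 810 in males for Eif3i. Eif3k and Eif3l encode a pair of peripheral subunits that bind each other. Eif3k had authors' means of 660 in females and 523 in males, and Eif3l had 3631 in females and 3054 in males. For Eif3c and Eif3h the authors' deposited table gave small log2 ratios, 0.09 and 0.06. Eif3c, a main scaffold chain, had authors' means of 9878 in females and 9254 in males, and Eif3h, the second MPN subunit, had 4552 in females and 4357 in males. Summed over the complex, the authors' means were 51987 in females and 53059 in males, a sum that the genes with high means weigh on most. The median log2 ratio of the 13 genes was 0.25.

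**Figure D3:**
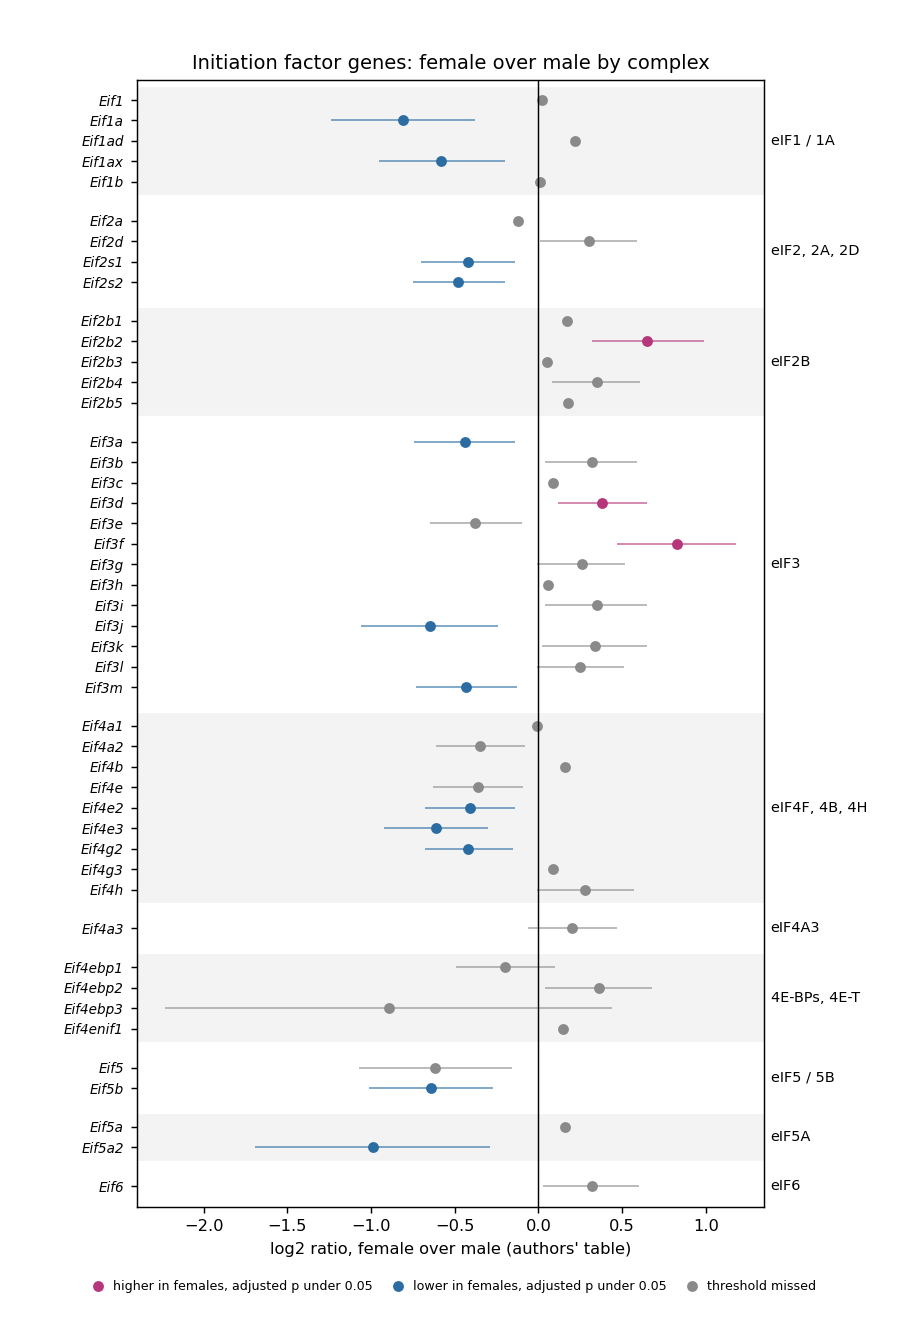
Log2 ratio, female over male, of each initiation factor gene from the authors' deposited table (horizontal axis), in blocks by factor complex, with colour for the call. Bars are 95% intervals from a standard error implied by the authors' p and are drawn for genes with an unadjusted p under 0.2. The 12 genes lower in females are spread over 6 blocks, and all 5 eIF2B genes lie right of 0, with Eif2b3 close to it at 0.05.

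Of the 3 cap-binding genes, 2 fell. Eif4e3 encodes a divergent cap-binding protein. Its mean was 676 in females and 1033 in males, and the authors' deposited table gave a log2 ratio of -0.61 (adjusted p = 0.00393). Eif4e2 encodes a homologue best known for repressing selected mRNAs. It had means of 1876 in females and 2490 in males, and the authors' deposited table gave a log2 ratio of -0.41 (adjusted p = 0.0300). Eif4e, the main cap-binding protein, had means of 7086 in females and 9077 in males and missed the threshold (adjusted p = 0.0585, the authors' deposited table). All 3 genes thus had a lower mean in females, and the authors' deposited table gave log2 ratios from -0.61 to -0.36. No row carried the symbol Eif4e1b.

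Among the scaffolds and helicases, Eif4g2 fell. Its product, also called DAP5, lacks the eIF4E-binding part of the eIF4G family and serves mRNAs read without eIF4E. It had means of 21333 in females and 28492 in males, and the authors' deposited table gave a log2 ratio of -0.42 (adjusted p = 0.0211). Eif4g3, an eIF4E-binding scaffold, had authors' means of 1111 in females and 1042 in males. The main scaffold, Eif4g1, had no row under that symbol. The helicase genes gave different values. Eif4a2 had means of 10726 in females and 13659 in males (adjusted p = 0.0622), and Eif4a1 had 3671 in females and 3699 in males (adjusted p = 0.982), both from the authors' deposited table. These paralogs are closely alike, and reads could have been divided between them. Eif4b and Eif4h encode partners that stimulate the helicase. Their authors' means were 10442 in females and 9337 in males for Eif4b and 3276 in females and 2691 in males for Eif4h, and neither was called. Eif4a3, a relative that marks spliced mRNA in the exon junction complex, had means of 2254 in females and 1957 in males (adjusted p = 0.359, the authors' deposited table).

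None of the genes that hold eIF4E back or carry it changed, although 1 of the 4 had an unadjusted p under 0.05 in the authors' deposited table. Eif4ebp1, the binding protein released when mTOR is active, had authors' means of 1024 in females and 1173 in males. Eif4ebp2, its paralog, had 942 in females and 733 in males (adjusted p = 0.119, the authors' deposited table). Eif4enif1 encodes the protein that carries eIF4E into the nucleus, and it had authors' means of 1784 in females and 1611 in males. Eif4ebp3 was scarce. Its reads were recovered in each library from the digits of the group means, as normalized read counts of 10.6, 18.1, 0, 9.26 and 10.3 in the 5 female libraries. In the 6 male libraries they ran from 0 to 30.5 with a median of 19.3. The groups overlapped, with 1 library at 0 in each sex. The mean was 9.64 ± 6.44 in females (SD, n = 5) and 17.9 ± 10.9 in males (SD, n = 6). The two-sided p was 0.169 by exact permutation. In the libraries at 0, a count of 0 leaves room for up to 3 reads, for counting error only.

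Of Eif5b, Eif5 and Eif6, Eif5b alone was called, and it fell. Eif5b, for the GTPase that joins the ribosomal subunits, had means of 3000 in females and 4676 in males, and the authors' deposited table gave a log2 ratio of -0.64 (adjusted p = 0.0108). Eif5, for the protein that makes eIF2 spend its GTP, had 5829 in females and 8930 in males, and the authors' deposited table gave a log2 ratio of -0.62 that missed the threshold (adjusted p = 0.0559). The standard error implied by the authors' p was 0.23 for Eif5 and 0.19 for Eif5b, and its median over the 32 initiation factor genes with an unadjusted p under 0.2 was 0.15. Eif6, whose product keeps the large subunit from joining too early, had means of 1834 in females and 1471 in males (adjusted p = 0.128, the authors' deposited table).

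The eIF5A genes encode a protein that carries the modified residue hypusine and helps the ribosome through difficult stretches. Eif5a, the common form, had means of 10561 in females and 9463 in males and was not called (adjusted p = 0.478, the authors' deposited table). Eif5a2, the restricted form, fell, and the authors' deposited table gave a log2 ratio of -0.99 (adjusted p = 0.0419). It was the only called member for which recovery of reads by library was tried. The normalized read counts were 28.2, 72.4, 38.3, 67.9 and 6.17 in the 5 female libraries. In the 6 male libraries they ran from 60.9 to 118 with a median of 77.2. The male reads are less certain, because sums shifted off their value also had a solution in 3 of 6 trials. In 3 female libraries the count was under the lowest male one, and in 2 it was within the male range, so the groups overlapped. The mean was 42.6 ± 27.8 in females (SD, n = 5) and 84.7 ± 23.6 in males (SD, n = 6). The two-sided p was 0.0281 by exact permutation. This test used the same libraries as the authors' test and is no independent support for it. Leaving out 1 library at a time, the female minus male difference stayed between -49.6 and -33.1, against -42.2 with all libraries. With fewer splits to compare, the p was 0.0857 without female library e, 0.0619 without female library a or c, and 0.0635 without male library a, e or f, in the same exact permutation test.

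**Figure D4:**
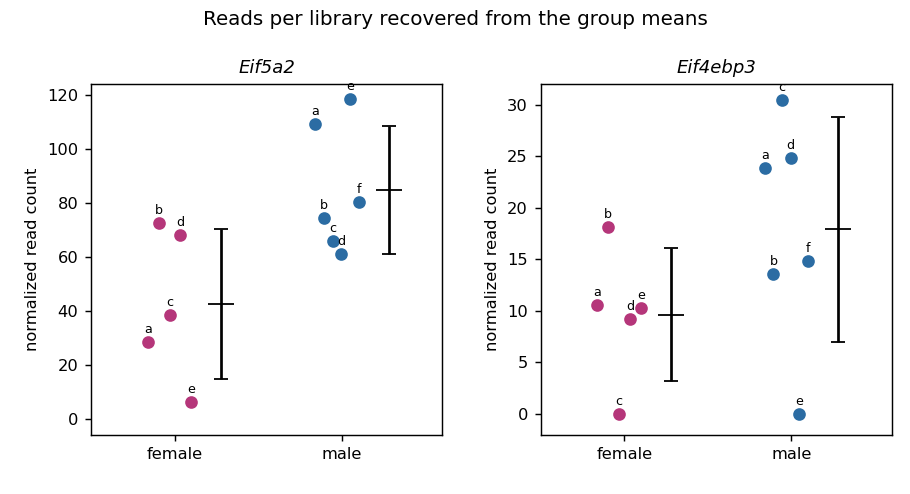
Normalized read count (vertical axis) of Eif5a2 and Eif4ebp3 in each female and male library, recovered from the digits of the group means. Letters run within a sex from the largest size factor to the smallest, and bars are the mean and SD. For Eif5a2, female library e at 6.17 is the lowest and 3 of 5 female libraries lie below all males. For Eif4ebp3 the sexes overlap.

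Promoters are shown of genes called in opposite directions. They are the 2 genes with the smallest p in each direction that have a single promoter window in the RefSeq table (build GRCr8, not the rn6 build of the reads), from 250 bases before to 50 bases after the start. Capitals mark matches on either strand to the ETS-type motif CCGGAAG, the E-box CACGTG or the GC box GGGCGG, and matches did not overlap. Eif3f and Eif2b2 rose in females, and Eif5b and Eif2s2 fell.
Eif3f, chr1:172368812-172369111, plus strand: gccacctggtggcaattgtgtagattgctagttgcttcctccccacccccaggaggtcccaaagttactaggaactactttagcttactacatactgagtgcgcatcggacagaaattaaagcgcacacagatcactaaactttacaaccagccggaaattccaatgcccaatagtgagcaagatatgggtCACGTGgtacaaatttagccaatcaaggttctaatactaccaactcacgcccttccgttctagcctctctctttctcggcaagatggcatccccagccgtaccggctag
Eif2b2, chr6:110597729-110598028, plus strand: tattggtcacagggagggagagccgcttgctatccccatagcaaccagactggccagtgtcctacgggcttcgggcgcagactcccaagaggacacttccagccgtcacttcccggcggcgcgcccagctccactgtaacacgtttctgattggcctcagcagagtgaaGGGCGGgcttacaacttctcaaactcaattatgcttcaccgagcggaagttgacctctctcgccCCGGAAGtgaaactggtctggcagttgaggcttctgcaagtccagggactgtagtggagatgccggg
Eif5b, chr9:47718456-47718755, plus strand: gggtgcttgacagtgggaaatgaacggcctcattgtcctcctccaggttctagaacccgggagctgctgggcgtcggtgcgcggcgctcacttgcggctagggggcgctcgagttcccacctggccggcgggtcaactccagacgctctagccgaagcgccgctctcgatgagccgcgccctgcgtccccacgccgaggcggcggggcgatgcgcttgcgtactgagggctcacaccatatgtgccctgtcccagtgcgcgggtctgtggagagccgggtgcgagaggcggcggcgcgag
Eif2s2, chr3:163855521-163855820, minus strand: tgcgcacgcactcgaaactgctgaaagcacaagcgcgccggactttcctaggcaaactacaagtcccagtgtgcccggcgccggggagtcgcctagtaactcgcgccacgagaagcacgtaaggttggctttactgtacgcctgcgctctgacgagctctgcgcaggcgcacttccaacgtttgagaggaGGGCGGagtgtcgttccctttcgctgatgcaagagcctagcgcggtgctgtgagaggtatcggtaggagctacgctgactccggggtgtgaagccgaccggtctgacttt
Eif3f held an E-box and no other match, Eif2b2 held an ETS-type motif and a GC box, Eif5b held none, and Eif2s2 held a GC box.

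Windows were found for 41 of the 46 genes, and a match describes letters in the window and not a bound site. The ETS-type motif was present in 17 of 41, or 41.5%, against 19.2% of genes whose mean reached 50. It was in 2 of 3 genes higher in females, 5 of 11 lower and 10 of 27 not called, so it was found on every side of the comparison. The E-box was present in 8 of the 41, or 19.5%, against 10.1% of those genes. The GC box was in 28 of 41, or 68.3%, against 65.4%, and it was in 1 of 3 genes higher in females and 10 of 11 lower. Over all genes it was present in 65.8% of those higher and 67.4% of those lower in females. A C followed by 4 pyrimidines, a tract like that of mRNAs whose translation follows mTOR, was present in 8 of 41 genes, or 19.5%, against 17.9%. It was accepted anywhere from 5 bases before to 10 bases after the start, so the C need not be the first transcribed base. The median GC content of the windows was 58.0% in the 3 members higher in females, 68.7% in the 11 lower and 59.0% in the 27 not called. Over all genes it was 61.7% in those called higher and 63.0% in those called lower. These are descriptions of few genes and were not tested.

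Genes around the initiation factors changed in both directions. Of 44 measured genes on 6 lists of regulators and later factors, the authors' deposited table called 8 higher and 8 lower in females, where 6.71% and 7.76% of all genes tested were called. In the mTOR complex and its inputs, 4 of 9 rose and 1 fell. The authors' deposited table gave log2 ratios of 0.42 for the kinase gene Mtor, 0.43 for its partner Rptor, 0.53 for the inhibitory component Akt1s1 and 0.57 for the upstream brake Tsc2. The S6 kinase gene Rps6kb1 fell, with -0.90 as the log2 ratio from the authors' deposited table. Genes of the complex and of its inhibitors were thus called in the same direction. Among 11 genes around eIF2 phosphorylation, Gcn1l1, an activator of the kinase GCN2, rose and Eif2ak2, the kinase that senses double-stranded RNA, fell. Their log2 ratios were 0.73 and -0.94 by the authors' deposited table.

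Partners of the ribosome and the mRNA were lower where they were called. Pdcd4, an inhibitor of eIF4A, had a log2 ratio of -0.82 by the authors' deposited table, and 1 of the 3 genes on its list changed. Paip1, which links the poly(A)-binding protein to eIF4A, was the called gene among 4, with -0.49 as its log2 ratio from the authors' deposited table. Of 6 other helpers, 3 fell, and the authors' deposited table gave log2 ratios of -0.51 for the recycling factor Abce1, -0.59 for the reinitiation factor Mcts1 and -0.55 for the eIF5 mimic Bzw1. In contrast, 3 of 11 elongation and release factors rose. Eef1a2, the muscle form of the tRNA-carrying factor, had authors' means of 73181 in females and 44740 in males. The authors' deposited table gave log2 ratios of 0.71 for Eef1a2, 0.50 for the translocase Eef2 and 0.36 for Eef1g. The release factor gene Etf1 fell, with a log2 ratio of -0.63 by the authors' deposited table. No list was tested as a set.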

How the data were processed

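Per the labels' protocols, stranded paired-end libraries were built from 650 ng of total RNA (integrity number 9 or above) after removal of ribosomal RNA. The submitters' processing notes name Trimmomatic 0.32 and FastQC for reads, TopHat2 2.0.12, HTSeq 0.6.1, DESeq and the build rn6. Their order, the annotation and the strand setting are not given in the sources used here. Per the file headers, the authors gave a mean normalized signal (gene counts over size factors) for all libraries and for groups A and B. The authors also deposited a fold change as a ratio, its log2 value, a p-value and an adjusted p-value. Weighting A by 6 libraries and B by 5 returned the overall mean within a relative 1e-09 for all 13346 genes with a mean above 0, and the exchanged weights did so for 0 genes. So A was taken as the 6 males and B as the 5 females. The adjusted p matched a Benjamini-Hochberg adjustment over those genes, with a largest difference of 3.3e-15.

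The authors' test was used as deposited. The design expected this table, so no other test across genes was fitted. Labels call the libraries biological replicates, and the table carries no value per library. A standard error implied by the authors' p, the log2 fold change over the normal quantile of the p, was computed where the unadjusted p was under 0.2. Group means hold whole reads divided by size factors, so the digits gave 5 female and 6 male size factors, refined on 300 genes per sex. Whole reads of 2 members with means under 100 were then solved within a relative tolerance of 3e-15, with 1 solution per sex and gene. Of 100 real genes per sex, with means of 20 to 50 in females and 20 to 30 in males, 100 had their reads inside that tolerance. The male mean of Eif5a2, 84.7, lies above that range, so its male reads were not covered by this check. Among the genes used for refining, the largest relative residual was 5.0e-15 in females and 4.5e-15 in males, outside the tolerance. Sums shifted off their value had a solution in 0 of 50 cases for the females of Eif5a2 but in 3 of 6 for its males, so the male reads of Eif5a2 are less certain. On simulated data the true reads alone were returned in 20 of 20 and 3 of 4 cases for these. Libraries are known by sex and size factor and not by replicate number. The 2 members were tested by an exact permutation of 462 splits, in which the smallest p is 0.00216. Python 3.11.15, numpy 2.4.6 and pandas 2.3.3 were used.

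All 46 members matched a RefSeq symbol. The table names pseudogenes for 26 members, 9 of the 15 called among them, and gives Eif4g2 and Eif3e also as older symbols of pseudogenes, so reads of these rows may be shared. Members and lists were chosen with earlier results of these data known. The genes named were every called member and the other members with their means, and each called gene of the lists. Alternatives were other thresholds, filters, scalings of the means, log scales and libraries left out.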

Additional observations from a re-analysis of the deposited data

How the results depend on the processing

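The 3 calls higher and 12 lower in females came to 4 and 16 at an adjusted p under 0.10, where 9.41% and 11.1% of all genes were called. They came to 3 and 16 when the adjustment ran over genes with a mean of 10 or more and to 4 and 16 at 50 or more. At an adjusted p under 0.01 they came to 2 higher and 2 lower. With a Bonferroni adjustment of the authors' DESeq p-values 0 were higher and 0 lower, while 26 members (and 27.3% of all genes) had an unadjusted p under 0.05. At an adjusted p under 0.01 the 8 pathway genes called higher came to 4 and the 8 called lower to 6. There 2.95% of all genes were higher and 2.73% lower. With an adjusted p under 0.10 the pathway genes came to 8 higher and 11 lower, where 9.41% and 11.1% of all genes were called. Scaling the group means to equal totals over all rows moved the median log2 ratio of all genes to 0.14 and that of the members to 0.20. Equal totals over rows with a symbol gave -0.01 for the members and equal upper quartiles 0.10. Under these scalings and under centring, 0 of the 15 called members changed sign. That outcome was fixed in advance. Each scaling shifts every log2 ratio by a constant, 0.15 at most, and the smallest called log2 ratio was 0.38 in size. The sizes did move with equal totals over all rows, from -0.42 to -0.27 for Eif2s1 and from 0.38 to 0.53 for Eif3d. The p-values were not recomputed under these scalings. Leaving out each library in turn, the exact permutation p ran from 0.0190 to 0.0857 for Eif5a2, with 6 of 11 not under 0.05 and the mean lower in females in all 11, and from 0.0397 (without male library e) to 0.348 for Eif4ebp3. On the log2 scale with 1 added the p was 0.0195 for Eif5a2 and 0.461 for Eif4ebp3, again by exact permutation. No paired analysis was possible because the columns carry group means without replicate numbers. Depth per library limits Eif4ebp3, with 51 reads over the females and 111 over the males.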
